A study of Mus musculus with 2 samples.

Results

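Cells with a high level of Myc were compared with cells of the same depth in which no Myc count was found, among macrophages made from mouse fibroblasts by introducing c-Myc. Of 6837 barcodes, 6751 had 500 genes or more and no more than 15% mitochondrial counts, and 3060 of these held 20000 counts or more. Among the 3060, 258 cells (8.43%) had Myc at 100 CPM or more (counts per 1000000 counts of the cell) and are called Myc-high. Another 1081 cells (35.3%) had 0 Myc counts and are called Myc-negative. The remaining 1721 cells had Myc counts below 100 CPM.

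The series has 2 libraries of induced macrophages (iMac), labelled cDNA and oligo and both wild type, detached with EDTA and captured in droplets on the DNBelab C4 system. Both groups compared here therefore share the wild type label and the induction by c-Myc. The barcode names do not tell how the 2 libraries relate to single cells. The sources used here do not give how c-Myc was delivered, what drove its expression or whether the cells came from 1 culture. Barcode names in the 1 matrix carry no library, no barcode occurs more than once, and the matrix counts as 1 sample. With 1 sample there is no replicate and no test. Intervals of levels cover counting error at the 95% level only. Intervals of shares count cells or genes as separate draws. No interval covers differences between cultures.

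Myc is a transcription factor that binds DNA together with Max, often at the E-box CACGTG. It is known for driving growth genes, among them those for making ribosomes, nucleotides and proteins, and for promoting entry into the cell cycle. In macrophages Myc is generally high in proliferating precursors and falls as the cells mature.

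Cells were compared within 4 bands of total counts, 20000 to 30000, 30000 to 45000, 45000 to 70000, and 70000 and over. The Myc-high group held 87, 88, 66 and 17 cells of these bands, and the Myc-negative group held 492, 392, 176 and 21. Levels of the bands were averaged with the same weights in both groups, and differences are log2 ratios of Myc-high over Myc-negative cells with 1 CPM added to both. A gene is called higher or lower if the weighted ratio was at least 1.3-fold and had 1 direction in all 4 bands. The deepest band, with the fewest cells, therefore weighs on every call.

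The members were chosen by their own Myc counts and totals, so the Myc values are a description. The Myc-high cells of the 4 bands stood at 159, 145, 143 and 129 CPM. Each held 3 to 34 Myc counts with a median of 5, and the highest cell reached 631 CPM. The Myc-negative cells were chosen for 0 counts, so their summed counts are 0 by the choice and set no limit on their Myc level. A single cell is far less certain: 0 counts in 20000 allow up to 150 CPM, and 0 counts in 70000 allow up to 42.9 CPM. Had all cells of 20000 counts or more shared the same Myc level, 675 with 0 counts would be expected, against 1081 found. With the same level within each band, 388, 256, 80.4 and 6.57 would be expected, against 492, 392, 176 and 21 found. Much of the Myc-negative group, above all in the lower bands, may thus hold Myc that was not sampled. The name stands for 0 counts found, not for absence of Myc. The Myc counts do not tell the endogenous gene from an introduced copy.

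**Figure D1:**
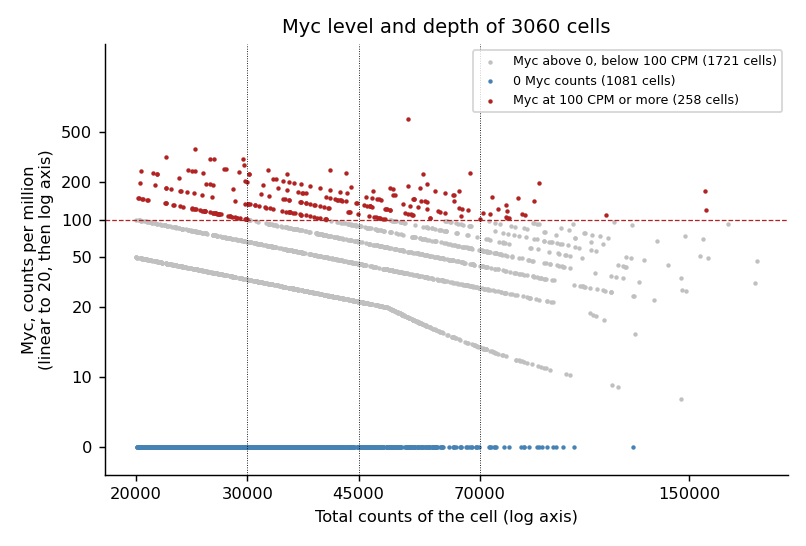
Myc level (CPM, vertical axis, linear to 20 and logarithmic above) against total counts (logarithmic horizontal axis) of the 3060 cells, one point per cell. Dotted lines mark the band limits and the dashed line marks 100 CPM. The slanted rows of points are cells with the same whole number of Myc counts, and Myc-high cells occur in all 4 bands.

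Depth was close within bands, with median totals of 25681 against 24616, 36532 against 35322, 53930.5 against 51319 and 77964 against 82240 counts in Myc-high and Myc-negative cells. The median mitochondrial share was 0.393% against 0.605%, 0.399% against 0.738%, 0.914% against 0.777% and 0.779% against 0.647%. The median share of counts on ribosomal RNA loci was 7.47% against 5.07%, 5.88% against 4.92%, 5.93% against 4.97% and 5.43% against 6.54%. Thus the Myc-high cells of the lower 2 bands had less mitochondrial RNA, and those of the lower 3 bands had more ribosomal RNA signal. All 20 macrophage markers reached 10 CPM, and their summed level was 12576 CPM in Myc-high and 15565 CPM in Myc-negative cells. No fibroblast marker reached 10 CPM, and 9 of the 15 on that list, Col1a1, Col1a2, Col3a1 and Dcn among them, had no row. The other 6 summed to 2.59 and 2.61 CPM. Of 7 monocyte markers, 4 reached 10 CPM, with sums of 165 and 112 CPM. Of 11 neutrophil markers only Prtn3 did, with sums of 143 and 107 CPM. Markers of the B, T and NK, mast, erythroid, endothelial, epithelial, dendritic and stem cell lists all stayed below 10 CPM.

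Of 6699 genes at 10 CPM or more over all 3060 cells, 624 (9.31%) were called higher and 190 (2.84%) lower in Myc-high cells. At 1.5-fold the numbers were 178 (2.66%) and 66 (0.985%). At any size, 4064 genes (60.7%) were higher and 2635 (39.3%) lower, and the median log2 ratio over all genes was 0.08. Every list below is read against these shares. The counting intervals of the 2 groups did not overlap for 808 of the 814 called genes, and for 2778 (41.5%) of all 6699 genes, called or not. Without the band of 70000 counts and over, with its 17 Myc-high cells, the count of higher genes was 1052 rather than 624, since the direction in that band was then no longer asked for. With bands crossed by 3 parts of the mitochondrial share, 645 genes were called higher and 152 lower, and by 3 parts of the ribosomal RNA share 662 and 182.

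Genes for making ribosomes were mostly higher in Myc-high cells. Of 40 ribosome biogenesis genes, all tested, 38 were higher and 22 were called higher, none lower, with a median log2 ratio of 0.46. The median stood at 0.57, 0.40, 0.40 and 0.34 in the 4 bands. Their summed level was 8849 CPM in Myc-high and 6504 CPM in Myc-negative cells.

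Ncl encodes nucleolin, an abundant nucleolar protein of ribosomal RNA synthesis and processing. Its level in the 4 bands was 2606, 2729, 2925 and 3256 CPM in Myc-high cells and 1566, 1730, 2070 and 2453 CPM in Myc-negative cells. Weighted over bands this gave 2755 CPM (2721 to 2790) against 1784 CPM (1771 to 1798), a log2 ratio of 0.63. Each Myc-high band was above the Myc-negative cells of its own band, and both groups were higher at greater depth.

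Nop56 and Nop58, core proteins of the box C/D particles that guide ribosomal RNA methylation, were higher in Myc-high cells, as was Dkc1. Nop56 stood at 186, 231, 262 and 314 CPM against 129, 147, 172 and 214 CPM, a log2 ratio of 0.59. Nop58 had a weighted level of 287 against 195 CPM, a log2 ratio of 0.55. Dkc1 encodes dyskerin, the pseudouridine synthase of the box H/ACA particles, and stood at 146, 139, 194 and 188 CPM against 74.6, 83.3, 107 and 133 CPM, a log2 ratio of 0.82. Its 2 lowest Myc-high bands were above its highest Myc-negative band, as they were for Ncl.

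Rrp1b (54.8 against 28.2 CPM), the ribosome assembly gene Wdr43 (151 against 87.4 CPM), the nucleolar RNA helicase gene Ddx21 (133 against 81.7 CPM) and the RNA acetyltransferase gene Nat10 (35.0 against 21.2 CPM) had log2 ratios of 0.93, 0.78, 0.70 and 0.70. Polr1b, a core subunit of RNA polymerase I, had a weighted log2 ratio of 0.87. It was not called, because it was at 19.0 against 19.7 CPM in the deepest band. Npm1 (1725 against 1379 CPM) and Fbl (368 against 333 CPM), encoding nucleophosmin and the methyltransferase fibrillarin, had ratios of 0.32 and 0.14 and were not called. Mdn1, outside the list, encodes a very large ATPase that strips assembly factors from maturing large ribosomal subunits, and had the largest ratio of all genes called higher. It stood at 39.7, 37.2, 41.2 and 33.5 CPM against 15.8, 16.9, 18.1 and 28.8 CPM, a log2 ratio of 1.12.

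**Figure D2:**
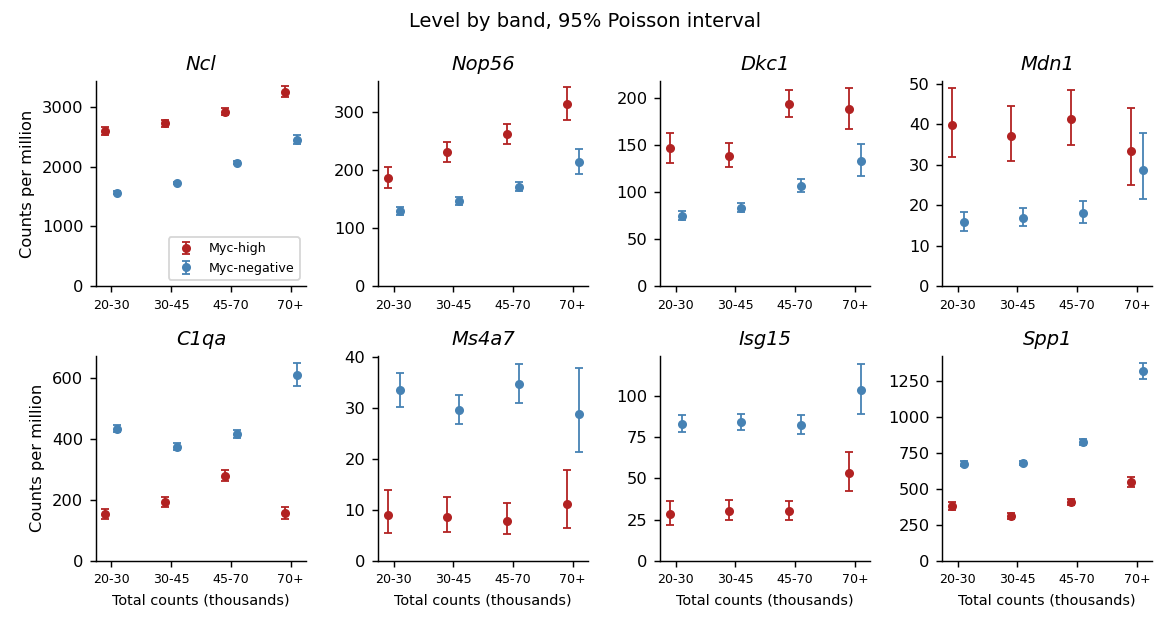
Level (CPM, linear axes starting at 0) of 8 genes in the 4 bands of total counts, in Myc-high (red) and Myc-negative (blue) cells, with exact 95% Poisson intervals as bars. Ncl, Nop56, Dkc1 and Mdn1 are higher and C1qa, Ms4a7, Isg15 and Spp1 lower in Myc-high cells in each band, and the intervals of Mdn1 overlap in the deepest band.

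Protein genes of the ribosome itself were not called. Of 80 tested ribosomal protein genes, 7 were higher and 73 lower, with 0 called in either direction and a median of -0.07. Their sum was 311181 CPM in Myc-high and 327306 CPM in Myc-negative cells, and the list median was 0.05 in the deepest band. Mitochondrial ribosomal proteins (78 tested, 1 called lower, median -0.07) were also near 0. Of 88 respiratory chain genes 80 were lower, with a median of -0.13 and 1 called in each direction.

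Genes of nucleotide and polyamine synthesis were mostly higher by less. Of 29 tested, 27 were higher and 7 were called higher, with a median of 0.26. The 7 included Amd1 (64.5 against 40.5 CPM), of spermidine synthesis, and the purine synthesis genes Ppat (51.4 against 33.1 CPM), Atic (50.9 against 32.9 CPM), Gart (104 against 74.2 CPM) and Pfas (a log2 ratio of 0.55). Shmt1 and Mthfd1, of one-carbon metabolism, had log2 ratios of 0.53 and 0.51. Odc1 (84.0 against 70.5 CPM) and Cad (43.6 against 34.4 CPM), often used as Myc targets, had ratios of 0.25 and 0.33 and were not called.

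Among 26 translation factors 5 were called higher, with a median of 0.19. Eif3a, a scaffold subunit of an initiation factor, was at 204, 216, 247 and 238 CPM against 104, 130, 156 and 227 CPM, so its groups were close in the deepest band. The poly(A)-binding protein gene Pabpc1 was at 769 against 525 CPM, a log2 ratio of 0.55. Of 20 aminoacyl-tRNA synthetases, which charge tRNAs, 18 were higher (median 0.22), but only Eprs was called (197 against 149 CPM), a share no larger than that of all genes. Of 19 chaperone genes 18 were higher and 3 were called, Hspd1, Hsp90aa1 and Hsp90ab1, the last at 2220 against 1681 CPM.

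All 15 tested genes of sterol and fatty acid synthesis were higher, with a median of 0.41, and 6 were called. Among them were Acaca (17.0 against 10.8 CPM), Scd2 (116 against 79.2 CPM) and Idi1, which had log2 ratios of 0.61, 0.55 and 0.54. The list median shrank across the bands from 0.50 to 0.34, 0.23 and 0.05. Glycolysis had a median of 0.00 over 16 genes. Its called members were Hk2 (66.7 against 48.7 CPM), a hexokinase gene, and the lactate transporter gene Slc16a1 (a log2 ratio of 0.79). Ldha was at 1037 against 1076 CPM. The amino acid transporter genes Slc38a2 and Slc1a5 were called higher, with ratios of 0.57 and 0.41.

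**Figure D3:**
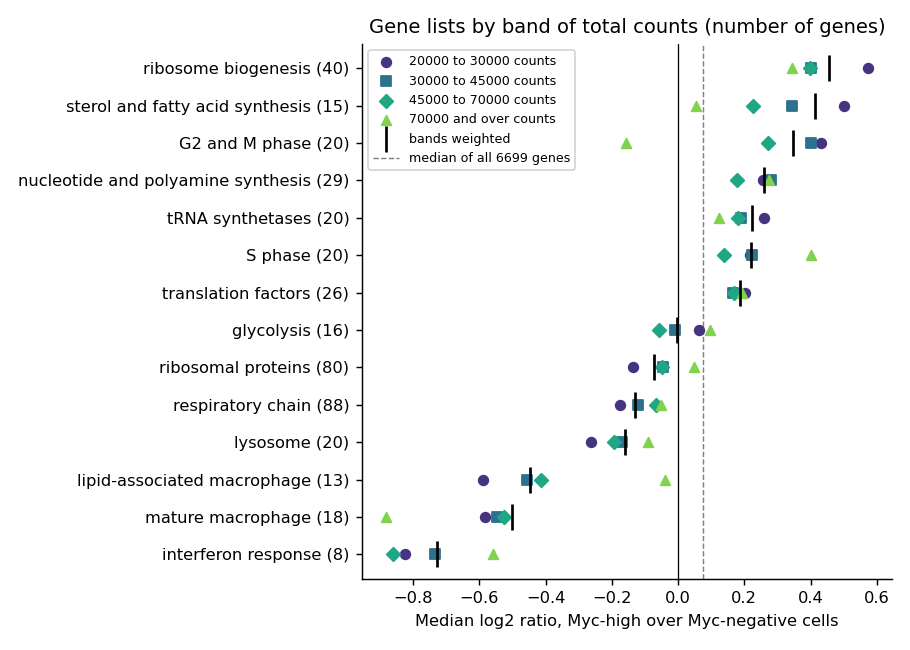
Median log2 ratio (horizontal axis) of 14 gene lists in each band of total counts (coloured symbols) and with bands weighted (black bars). The dashed line is the median of all 6699 genes, 0.08. Ribosome biogenesis is above it and the mature macrophage and interferon lists below it in every band, while the G2 and M list changes side in the deepest band.

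Cell cycle genes were higher by less than the ribosome biogenesis genes. Of 20 S phase genes 18 were higher and 3 called (Hells, Fen1 and Mcm4), with a median of 0.22. Of 20 G2 and M phase genes 17 were higher and 5 called (Bub1b, Kif11, Kif20b, Mki67 and Top2a), with a median of 0.35 that was -0.16 in the deepest band. Mki67, a proliferation marker, stood at 135, 117, 137 and 198 CPM against 72.9, 69.7, 102 and 179 CPM. Of 14 G1 cyclin and E2F genes, Cdc25a (48.3 against 29.7 CPM), a phosphatase that activates cyclin-dependent kinases, and E2f3 (19.8 against 12.4 CPM) were called higher. E2f2 had a log2 ratio of 0.76 and was lower in the deepest band. Of 14 genes for CDK inhibitors and the p53 response only Cdkn2c was called, lower at 9.76 against 14.0 CPM, and the inhibitor gene Cdkn1a was at 328 against 287 CPM. The list of genes known to be repressed by Myc had a median of 0.01 over 7 tested genes. Only Fth1, the ferritin heavy chain gene, was called lower there (9488 against 12547 CPM).

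Ribosome biogenesis genes were also mostly higher in Myc-high cells within parts of the cells by cell cycle level. When the 3060 cells were parted by the sum of S, G2 and M genes into 3 parts of 1020 cells, the biogenesis median was 0.35, 0.31 and 0.41 from the lowest to the highest part. The G2 and M median within those parts was 0.14, 0.06 and 0.06, and the S phase median was 0.25, -0.02 and 0.06. Cells of the lowest part were thus not matched in S phase genes, whose median was 0.22 without parts. Myc-high cells made up 5.69%, 9.51% and 10.1% of the 3 parts.

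Genes of mature macrophages were mostly lower in Myc-high cells. Of 18 tested, 17 were lower and 14 were called lower, none higher, with a median of -0.50. The median was -0.58, -0.55, -0.53 and -0.88 in the 4 bands. Ms4a7, a membrane protein gene of mature macrophages, stood at 9.02, 8.60, 7.80 and 11.2 CPM in Myc-high cells against 33.5, 29.7, 34.7 and 28.8 CPM in Myc-negative cells, a log2 ratio of -1.78. The groups did not overlap across bands. Ms4a7 was found in 35 of 258 Myc-high cells (13.6%) and 239 of 1081 Myc-negative cells (22.1%). One Myc-high cell held 18.3% of the Ms4a7 counts of that group, and without it the ratio was -2.27.

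C1qa, C1qb and C1qc encode the chains of complement C1q and lie side by side on chromosome 4 (GRCm38, chr4:136880129-136898803, minus strand). C1qa stood at 152, 192, 279 and 155 CPM against 433, 374, 415 and 610 CPM, a log2 ratio of -1.08. C1qb (162 against 328 CPM) and C1qc (233 against 488 CPM) had ratios of -1.02 and -1.06. The Fc receptor gene Fcgr4 (6.41 against 16.8 CPM), the scavenger receptor genes Cd36 (23.1 against 38.8 CPM) and Stab1 (18.8 against 27.2 CPM), the mannose receptor gene Mrc1 (50.2 against 66.7 CPM) and the efferocytosis receptor gene Mertk (8.23 against 14.8 CPM) were also called lower. Folr2, a folate receptor gene of tissue macrophages, was at 5.04 against 20.3 CPM and was found in 13 of 258 against 141 of 1081 cells. Of its 64 Myc-high counts, 21.9% came from 1 cell, and without it the log2 ratio was -2.23 rather than -1.82.

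Of the common macrophage markers, Cd68 (390 against 524 CPM) and Adgre1, which encodes F4/80 (28.2 against 39.4 CPM), were also called lower. Csf1r, whose product is the CSF1 receptor, stood at 152, 154, 136 and 148 CPM against 144, 147, 147 and 169 CPM, a log2 ratio of 0.02. Spi1, the macrophage lineage factor PU.1, was at 216 against 230 CPM. Of 13 lineage transcription factors Klf4 was called higher (48.1 against 25.4 CPM) and Irf5 lower (22.5 against 30.9 CPM).

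Transcripts of immature myeloid cells leaned the other way, with fewer counts. Only 4 of the 15 genes reached 10 CPM, and none was called. Ly6c2, a monocyte marker, stood at 66.3, 60.2, 56.5 and 16.4 CPM against 38.8, 30.4, 32.4 and 35.5 CPM. Prtn3, a granule protease of promyelocytes, stood at 145, 156, 107 and 43.3 CPM against 127, 91.2, 72.8 and 70.5 CPM. Both were higher in the lower 3 bands and lower in the deepest band. Ccr2 was at 28.2 against 18.5 CPM and F13a1 at 42.8 against 40.6 CPM.

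Single cells of the groups overlapped. The median Myc-high cell had a ribosome biogenesis sum of 8223, 8491, 9177 and 10052 CPM in the 4 bands, and the median Myc-negative cell 5839, 6394, 6984 and 8055 CPM. Above the Myc-negative median of their own band were 217 of 258 Myc-high cells (84.1%, exact interval 79.1 to 88.3). For the mature macrophage sum the same count was 64 of 258 (24.8%, 19.7 to 30.5). Both intervals count the cells of this sample as separate draws and say nothing of other cultures. The share was 80.2% for chaperones, 77.1% for sterol and fatty acid synthesis, 62.8% for S phase and 60.5% for G2 and M phase.

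**Figure D4:**
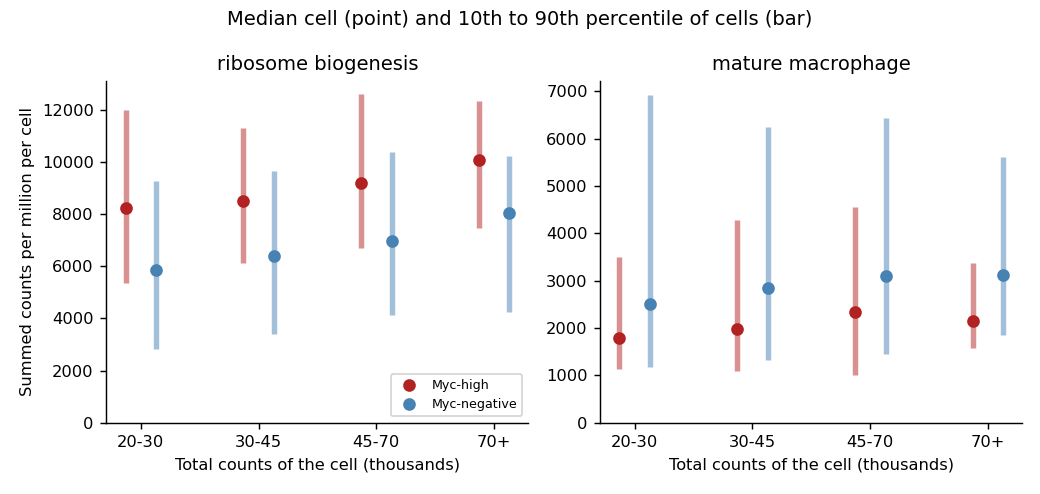
Summed level per cell (CPM, axes starting at 0) of the ribosome biogenesis and mature macrophage lists by band, with the median cell as a point and the 10th to 90th percentile of cells as a bar, for Myc-high (red) and Myc-negative (blue) cells. Medians differ in each band and the ranges of cells overlap.

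Cells with abundant C1q were found in both groups. A summed C1q level of 500 CPM or more was reached by 34.5%, 23.9%, 48.5% and 35.3% of Myc-high cells in the 4 bands, against 54.7%, 54.6%, 61.4% and 76.2% of Myc-negative cells. When the 3060 cells were parted by C1q level into 3 parts of 1020, Myc-high cells made up 12.1%, 7.75% and 5.49% from the lowest to the highest part. Ribosome biogenesis genes were higher in Myc-high cells within each part, with medians of 0.36, 0.42 and 0.46 and 36, 34 and 37 of 40 genes higher. The mature macrophage median within the parts was -0.16, -0.20 and -0.42. That list holds C1qa, C1qb and C1qc themselves, so its median is in part set by the parting. With bands crossed by these parts, 636 genes were called higher and 67 lower, so that 90.5% of calls were higher, against 76.7% without them.

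Lysosomal and lipid-handling genes were lower. Of 20 lysosome genes 18 were lower and 4 were called, with a median of -0.16. Among them were the protease genes Ctsb (679 against 1033 CPM) and Ctsd (571 against 847 CPM) and the membrane protein gene Cd63 (497 against 726 CPM). The lipid-associated macrophage list had a median of -0.45 over 13 genes, with 6 called lower. Spp1, encoding osteopontin, stood at 379, 309, 407 and 546 CPM against 676, 679, 826 and 1319 CPM, a log2 ratio of -1.01. The groups did not overlap. The lipid droplet gene Plin2 was at 172 against 282 CPM and Trem2, a lipid-sensing receptor gene, at 245 against 334 CPM.

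Interferon-induced genes were lower in all 8 tested cases, with a median of -0.73 and 5 called. Isg15, a ubiquitin-like interferon response gene, stood at 28.4, 30.1, 30.1 and 53.1 CPM against 83.2, 84.6, 82.7 and 104 CPM, a log2 ratio of -1.44. Ifi27l2a was at 260 against 616 CPM. Irf7 (10.5 against 20.6 CPM), a transcription factor of the interferon system, and Ifi204 (17.9 against 28.2 CPM), of a family of DNA sensors, were called lower as well. Chemokine genes Ccl2, Ccl4, Ccl6 and Ccl9 were called lower too. Of the Ccl4 counts in Myc-high cells 27.8% came from 1 cell, and its ratio was -1.14 with and -1.44 without it. Of the MHC list, H2-D1 (402 against 530 CPM) and H2-T23 (8.47 against 17.1 CPM), of class I, were called lower and Cd74 (67.3 against 44.5 CPM), the class II invariant chain gene, higher. Hmox1, Fth1 and Slc11a1 of the iron list were called lower, the heme oxygenase gene Hmox1 with a log2 ratio of -0.88.

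Levels over classes of Myc are given as a description, since the classes are cut by the same Myc counts that chose the groups. The class of 0 counts is the Myc-negative group, and the classes from 100 CPM up make up the Myc-high group. Only the classes between hold cells outside both groups. In cells with 0 counts, below 50, 50 to 100, 100 to 200, and 200 CPM or more (1081, 1074, 647, 225 and 33 cells), with bands weighted in each class as in the Myc-high group, Ncl was at 1809, 2066, 2349, 2704 and 2979 CPM. The class of 200 CPM or more had no cell of 70000 counts and over, so its values rest on 3 bands of 20, 10 and 3 cells. The ribosome biogenesis sum was 6546, 7296, 8062, 8803 and 9219 CPM. The mature macrophage sum was 3520, 3079, 2725, 2428 and 2013 CPM, and the interferon sum was 1089, 816, 664, 607 and 311 CPM. Each of these ran in 1 direction over all 5 classes. The S phase sum did not: it was 1353 CPM at 100 to 200 CPM of Myc and 1186 CPM at 200 CPM or more. Ms4a7 was at 32.2, 20.9, 13.9, 9.87 and 0.707 CPM. Few cells of either group held an Ms4a7 count, and its value in the 33 cells of the top class is near the floor.

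**Figure D5:**
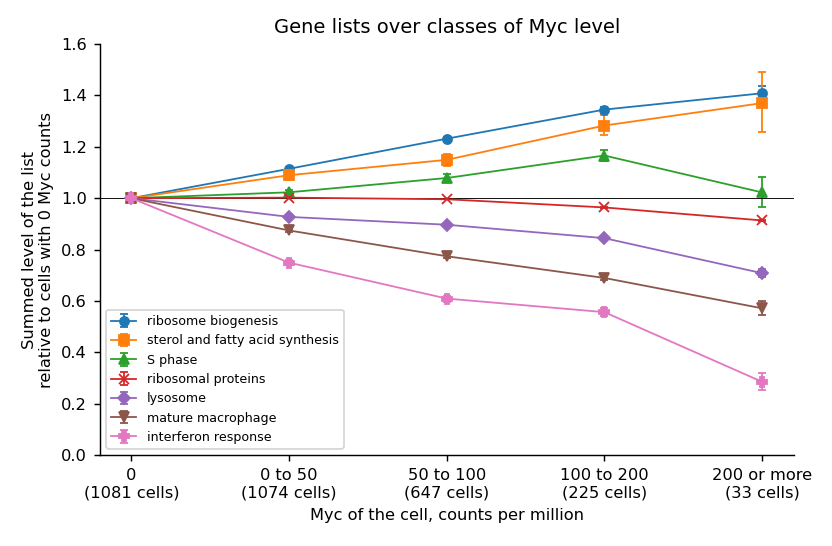
Summed level of 7 gene lists relative to cells with 0 Myc counts (vertical axis, linear from 0) over 5 classes of the cell's Myc level, with 95% gamma intervals of the class as bars. Ribosome biogenesis is higher and the mature macrophage, lysosome and interferon lists are lower in each successive class, and the S phase list turns back in the 33 cells of the top class, which has no cell in the deepest band.

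The values on either side of the limits are given as a description. The 42 cells at 100 to 110 CPM of Myc had Ncl at 2872 CPM, Ms4a7 at 3.10 CPM, a biogenesis sum of 9461 CPM and a mature macrophage sum of 2380 CPM. The 97 cells at 90 to 100 CPM had 2928, 13.6, 9137 and 2447 CPM. At the depth limit, 12 Myc-high cells of 20000 to 22000 counts had a biogenesis sum of 8664 CPM and the 99 Myc-negative cells 5988 CPM. The 27 and 132 cells of 18000 to 20000 counts, outside the limit, had 8725 and 5956 CPM. On the markers these few cells differed across the depth limit. The 12 cells inside it had Dkc1 at 248, C1qa at 100.1 and Ms4a7 at 0 CPM and a mature macrophage sum of 1959 CPM. The 27 cells outside it, with Myc at 100 CPM or more, had 169, 334, 13.6 and 2688 CPM.

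Genes of the Myc network had 6 members at 10 CPM or more. The antagonist genes Mga (26.2 against 16.2 CPM), Mnt (28.4 against 20.6 CPM) and Mxi1 (21.5 against 16.0 CPM) were called higher, with log2 ratios of 0.67, 0.44 and 0.41. Max, the obligate partner, was at 56.8, 47.6, 51.2 and 70.2 CPM against 43.3, 48.3, 51.2 and 48.5 CPM, a ratio of 0.16. Mlx (23.5 against 22.7 CPM) and Mxd4 (40.1 against 39.1 CPM) had ratios of 0.05 and 0.04. Of 18 tested cofactors and turnover genes 17 were higher and 4 were called. These were Usp36 (27.0 against 14.1 CPM), a nucleolar enzyme that removes ubiquitin from Myc, the ubiquitin ligase gene Huwe1 (68.8 against 50.1 CPM), the coactivator gene Trrap (26.3 against 19.4 CPM) and the cyclin gene Ccnt1 (40.5 against 30.2 CPM).

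Pvt1, a long noncoding RNA gene, begins 47.6 kb past the end of Myc on the same strand of chromosome 15 (GRCm38, Myc at chr15:61985391-61990374 and Pvt1 at chr15:62037986-62378096). It stood at 15.8, 11.7, 13.1 and 28.2 CPM in Myc-high cells against 4.44, 6.36, 6.23 and 15.8 CPM in Myc-negative cells, a log2 ratio of 1.11. One cell held 20.2% of its Myc-high counts, and without it the ratio was 1.02. Over the 5 Myc classes Pvt1 was at 6.30, 8.62, 9.99, 14.4 and 23.2 CPM.

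The other genes with the largest ratios on the higher side included Camk1d, a calcium-dependent kinase gene, Jarid2, a cofactor of Polycomb repression, Gphn, Tmtc2, the chromatin remodeller gene Chd1, Deptor, an inhibitor of mTOR, Bdp1, of RNA polymerase III transcription, and the early response factor gene Egr1. Camk1d stood at 974, 854, 444 and 464 CPM against 371, 365, 360 and 437 CPM, so that most of its difference lay in the lower 2 bands. One cell held 12.3% of its Myc-high counts, and the log2 ratio was 1.08 with and 0.89 without it. Jarid2 (879 against 494 CPM), Tmtc2 (533 against 292 CPM) and Gphn (531 against 297 CPM) had ratios of 0.83, 0.87 and 0.84. Chd1 was at 31.7 against 16.5 CPM and Deptor at 28.8 against 14.5 CPM. Egr1 did not stand for its list: of 11 early response genes 4 were higher and 7 lower, with a median of -0.13. Only Egr1 and Jun of that list were called. Without the Myc-high cell that held most of its counts, none of the 40 genes with the largest ratios changed direction. On the lower side, outside the lists already given, were Rhoc (a log2 ratio of -1.42), Clec12a (7.79 against 18.4 CPM), Tmem106a (19.0 against 42.4 CPM), Timp2 (33.6 against 71.6 CPM), Gas6 (22.2 against 45.2 CPM), a bridging ligand of Mertk, Selenop (39.5 against 79.6 CPM) and the chemokine gene Pf4 (157 against 302 CPM).

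Genes called higher were longer. Their median span from first to last annotated base was 39.1 kb, against 12.7 kb for genes called lower and 21.1 kb for genes called in neither direction. Of the 20 genes with the largest ratios on the higher side the median was 85.7 kb, and on the lower side 6.07 kb. Camk1d spans 421 kb, Tmtc2 387 kb and Gphn 458 kb. The transcript Gm42418, which overlaps ribosomal RNA sequence, was called higher too, at 89330, 61182, 56802 and 58677 CPM against 50458, 48280, 51090 and 58092 CPM. When the 3060 cells were parted by their ribosomal RNA share into 3 parts of 1020, Camk1d stood at 281 against 195 CPM, 434 against 318 CPM and 1218 against 686 CPM. Ncl in the same parts stood at 2584 against 1839, 2688 against 1844 and 2876 against 1694 CPM, and the biogenesis median was 0.33, 0.44 and 0.56. The part of gene length in the ratios was not tested.

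The promoters of the genes that were higher together were searched for the E-box CACGTG, which reads the same on both strands. The windows ran from 250 bases before to 50 bases after each start (RefSeq, GRCm38.p6), and 5408 of the 6699 tested genes had one. The E-box occurred in 15.9% of genes called higher (78 of 492), 9.38% of genes called lower (15 of 160) and 12.8% of the others (607 of 4756), and in 7.15% of all 32851 windows. The exact interval of the first share was 12.7 to 19.4%. A gene with several starts counts if 1 window holds it. In the lists it occurred in 7 of 33 ribosome biogenesis genes, 5 of 26 nucleotide and polyamine genes, 5 of 16 lysosome genes and 1 of 14 mature macrophage genes with a window. The called genes of the first 2 lists that hold it are printed here with up to 12 bases on either side, in capitals for the E-box and on the strand of the gene. Wdr43 (chr17:71616220-71616249, plus) has it from base 18 after the start, Utp20 (chr10:88826765-88826789, minus) from base 38, Mybbp1a (chr11:72441355-72441376, plus) from base 41 and Nle1 (chr11:82908355-82908384, minus) from base 24. In Atic (chr1:71557137-71557166, plus) it begins 7 bases before the start.
Wdr43: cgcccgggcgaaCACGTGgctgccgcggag
Utp20: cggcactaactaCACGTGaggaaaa
Mybbp1a: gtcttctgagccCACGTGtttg
Nle1: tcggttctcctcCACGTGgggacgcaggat
Atic: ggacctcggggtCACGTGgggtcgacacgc
The log2 ratios of Wdr43, Utp20, Mybbp1a, Nle1 and Atic were 0.78, 0.60, 0.46, 0.50 and 0.61. Ncl, Nop56 and Dkc1 do not have these letters in their windows and had ratios of 0.63, 0.59 and 0.82.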

How the data were processed

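Single-cell RNA of induced mouse macrophages was given as 1 matrix of 6837 barcodes and 20034 genes. The authors deposited raw counts of each gene in each barcode, in whole numbers. PISA 0.12 wrote the table, per the file headers. Cell Ranger and mm10 are named with no role, per the submitters' processing notes. Not given in the sources used here are the annotation, how cells were called, and whether counts are of unique molecules. If they are reads, intervals are too narrow. No doublet caller was applied.

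Counts were summed per group and band, divided by the total and multiplied by 1000000 (CPM). Band weights were the product of the groups' cell numbers over their sum. Genes below 10 CPM over all 3060 cells were left out. Depth ran from 20009 to 192369 counts per cell. Intervals are exact Poisson per band, gamma for weighted means and Clopper-Pearson for shares. A limit for 0 is 3 counts of the total. The members, the 33 gene lists and the 13 marker lists were chosen with earlier results of these data known. The rule for named genes took up to 6 members per list by ratio, the 20 largest ratios in each direction and all genes of the Myc network and locus. Further list members were named after their values were seen. Some genes that the rule names are not reported here. In simulated data for this comparison (6700 genes), 94.0% and 88.0% of genes made 1.5-fold higher and lower were called, and 0.092% of unchanged genes. The simulated counts had Poisson error only, with no differences between cells. The median ratio of the unchanged genes was subtracted before calling, which was not done for the real data. These shares are therefore no rates of missed or false calls in the real cells. Gene positions are from GENCODE M21. Python 3.11, numpy 2.4.6, scipy 1.17.1 and pandas 2.3.3 were used. Alternatives concerned the bands, weights, depth, Myc limit, mitochondrial limit, denominator, pseudocount, filter, fold and cell cycle. Parts by mitochondrial, ribosomal RNA and C1q level and by the number at the end of the barcode name were added after the data were seen.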

Additional observations from a re-analysis of the deposited data

How the results depend on the processing

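No paired analysis was possible because all cells form 1 sample. The 624 higher and 190 lower genes became 1115 higher with no bands, 377 and 90 with cells thinned to 20000 counts, 1148 and 750 with Myc at 200 CPM or more, 1036 and 486 without the filter on low values, and 178 and 66 at 1.5-fold. Thinning also regrouped the cells, at 2 or more Myc counts against 0 and with no bands, into 600 and 1604 cells. No Myc-high cell of 70000 counts and over reached 200 CPM (highest 196), so that limit also drops the deepest band and leaves 33 and 1060 cells. Higher genes numbered 1052 without the band 70000 and over. Lower genes numbered 125 with cells above 80000 counts left out and 67 with bands crossed by C1q level. Of all calls, 76.7% were higher, 60.5% with Myc at 200 CPM or more and 90.5% with C1q parts. The median of ribosome biogenesis was 0.26 with thinned cells and 0.63 with Myc at 200 CPM or more. G2 and M phase stood at 0.61 with Myc at 200 CPM or more and at 0.10 with cell cycle parts. The mature macrophage list stood at -0.35 with thinned cells, -0.91 with Myc at 200 CPM or more and -0.31 with C1q parts, which are made from genes of that list. Immature myeloid genes stood at 0.30 with thinned cells, 0.17 with Myc at 200 CPM or more, 0.081 without the filter and 0.26 without the band 30000 to 45000. Lysosome genes stood at -0.47 with Myc at 200 CPM or more. The cause of these shifts was not tested. The other 138 values stayed within 1.5-fold for counts and, for medians, within the median of the genes' counting intervals, which is wide. Among them G2 and M phase, at 0.35 as reported, stood at 0.14 with equal band weights and 0.13 at 40000 counts or more, S phase at 0.056 against 0.22 with cell cycle parts, and lysosome at -0.059 against -0.16 with C1q parts. None of these medians changed sign. Of the 624 higher genes, 190 were still called with thinned cells and 368 with Myc at 200 CPM or more. Of all 814 calls the sign turned for 5 with thinned cells, 17 with Myc at 200 CPM or more, 2 at 40000 counts or more and 1 with C1q parts. For 106 named genes, 1751 values under the alternatives stayed within the counting interval, 366 left it and 0 called values turned.

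Depth limits the grouping, since a cell just above 20000 counts needs only 3 Myc counts to be Myc-high and 0 counts there allow up to 150 CPM. The 17 Myc-high and 21 Myc-negative cells of 70000 counts and over decide many calls. There is no replicate, so differences between cultures are not measured, and fewer cells of a state cannot be told apart from a lower level per cell in summed counts.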
